A study of Homo sapiens with 15 samples.

Results

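Expression of 10 genes of bone morphogenetic protein (BMP) signaling was described in triple negative breast cancer cell lines: the ligands BMP2, BMP4 and BMP7, the receptors BMPR1A, BMPR1B and BMPR2, and the target genes ID1, ID2, ID3 and ID4. They were chosen by gene symbol in the table of FPKM values (fragments scaled to transcript length and to the mapped fragments of the library), and all 10 were among its 33158 genes. BMP ligands are secreted factors that bring type I receptors (BMPR1A, BMPR1B) and type II receptors (BMPR2) together on the cell surface, after which SMAD1, SMAD5 and SMAD9 are phosphorylated, join SMAD4 and activate genes in the nucleus. The ID genes are classical direct targets of these SMADs. ID proteins have a helix-loop-helix domain but no basic DNA-binding region, bind E proteins such as TCF3 and keep them from DNA, and are known for holding back differentiation in many cell types, mammary epithelium among them.

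The study sorted cancer stem cells (CSCs) from triple negative lines to look for genes that go with stemness. In SUM149PT, labelled SUM149, and in HCC1937, cells with a CD44+/CD24-/low surface formed the CSC fraction and the other cells the non-CSC fraction. SUM159PT, labelled SUM159, was sequenced unsorted and labelled as cancer stem cells. Each of the 5 groups had 3 libraries of mRNA selected with oligo(dT) beads, none of the cells was given a treatment in the labels, and each group comes from 1 cell line. Nothing states that replicates are separate cultures or sorts, so every p below measures the spread between these libraries. In bulk libraries, fewer cells of a type and less RNA per cell cannot be told apart.

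The sum of FPKM ran from 291276 to 366532 in the 12 sorted libraries and from 634746 to 652082 in SUM159PT. From 11249 to 11997 genes were above 1 FPKM in a sorted library and from 8534 to 8670 in a SUM159PT library. The smallest steps between low values put the depth of the libraries at 0.853 to 1.08 times that of SUM149PT CSC replicate 1, while the absolute depth is not known.

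The labels were checked against marker genes. CD24, the surface protein that the sort selects against, averaged 7.74 FPKM in SUM149PT CSCs against 139 in the non-CSC fraction, with 23.3 against 150.0 for HCC1937. It was lower in CSCs of both lines (log2 fold change -4.15, SE 0.060, limma adjusted p = 1.40e-06 in SUM149PT; log2 fold change -2.67, SE 0.089, limma adjusted p = 0.000128 in HCC1937). CD44 was higher in CSCs of SUM149PT (log2 fold change 0.39, SE 0.060, limma adjusted p = 0.00168), whereas in HCC1937 the difference did not pass the test (log2 0.12, limma adjusted p = 0.314). In SUM159PT, CD44 was at 28.8 ± 0.542 and CD24 at 0.729 ± 0.0410 FPKM (SD, n = 3), both below every sorted group in FPKM as given. Neither gene was tested or rescaled for SUM159PT, whose FPKM sums were higher. The study reports that most SUM159PT cells were CD44+CD24-.

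Epithelial and mesenchymal markers moved with the fractions. All 9 epithelial markers were lower in CSCs of both lines, against 41.5% of all genes tested in SUM149PT and 15.3% in HCC1937, the adhesion genes CDH1 (log2 -4.52 in SUM149PT and -2.29 in HCC1937) and EPCAM (log2 -4.44 and -2.23) among them. The exception in strength was KRT14 in SUM149PT, at 0.822 and 1.28 FPKM, whose call was lost without CSC replicate 2 (log2 -0.48, adjusted p = 0.0984), CSC replicate 3 (log2 -0.53, adjusted p = 0.0950), non-CSC replicate 1 (log2 -0.46, adjusted p = 0.0952) or non-CSC replicate 3 (log2 -0.57, adjusted p = 0.0862, all from limma). It was also lost with no minimum (-0.59, adjusted p = 0.120), upper quartile scaling (-0.52, adjusted p = 0.0509), quantile normalization (-0.12, adjusted p = 0.592), TPM (-0.58, adjusted p = 0.0515) and the GC (-0.33, adjusted p = 0.208) or length trend removed (-0.46, adjusted p = 0.0762, all from limma), and so held in 8 of 18 alternatives. VIM, CDH2, ZEB1, FN1 and SPARC were higher in CSCs of both lines, while TWIST1 was lower in SUM149PT CSCs (log2 -1.02) and higher in HCC1937 CSCs (log2 1.63).

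Summed over the 9 epithelial genes, the level was 498, 519.5 and 488 FPKM in SUM149PT CSCs against 2998, 2903 and 2924 in non-CSCs. In HCC1937 it was 1200.4, 1109.9 and 1019.6 in CSCs against 2738, 2765 and 2369 in non-CSCs, and in SUM159PT 1307, 1174 and 1324. The most abundant of the list was KRT19 in SUM149PT non-CSCs and KRT7 in the other groups, and CDH1 and EPCAM were at 0.0681 and 0.0467 FPKM in SUM159PT. The sum over the 6 mesenchymal genes was 2683, 2851 and 2750.3 FPKM in SUM149PT CSCs and 506, 496 and 564 in non-CSCs. It was 1153, 1013 and 990.3 in HCC1937 CSCs, 158, 232 and 207 in HCC1937 non-CSCs and 1282, 1297 and 1313 in SUM159PT, with VIM as the most abundant gene except in SUM149PT non-CSC replicate 1, where FN1 led. Of the leukocyte markers, CD3E was at 0 in every library and PTPRC did not pass 0.0986 FPKM in any library, whereas the myeloid genes CD14 and CD68 were expressed in every group. CD14 averaged 2.66 FPKM in SUM149PT CSCs against 51.3 in the non-CSC fraction, with 60.3 against 30.3 for HCC1937. CD68 was lower in SUM149PT CSCs (log2 -1.57) and did not differ by the test in HCC1937 (log2 0.080). The 3 endothelial markers together stayed below 2 FPKM in each library, and in SUM149PT they were lower in CSCs: PECAM1 (log2 -1.20), CDH5 (log2 -2.70) and VWF (log2 -2.48). In HCC1937, CDH5 was also lower in CSCs (log2 -1.28, limma adjusted p = 0.0155), a call that held in 13 of 17 alternatives. PECAM1 did not pass the test there (log2 0.23) and VWF was too low for a test. The part of these differences in the results on BMP and ID genes was not tested.

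The 10 genes covered a wide range of levels, as the plot of each gene by library shows. ID3 and ID1 were abundant transcripts in every group: ID3 was above 96.8% of all genes in HCC1937 non-CSCs, its lowest group (53.7 FPKM), and 99.7% in SUM149PT non-CSCs, its highest (317 FPKM). ID2 was abundant in SUM149PT, above 98.0% of genes in CSCs and 99.4% in non-CSCs, but less so in HCC1937 CSCs (90.6%), HCC1937 non-CSCs (83.3%) and SUM159PT (85.4%). BMP2, BMP4, BMPR1A, BMPR2 and ID4 lay between 0 and 19.1 FPKM. BMP7 and BMPR1B were near the lower limit of measurement, with no library above 0.163 FPKM for BMP7 and 0.191 for BMPR1B.

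**Figure D1:**
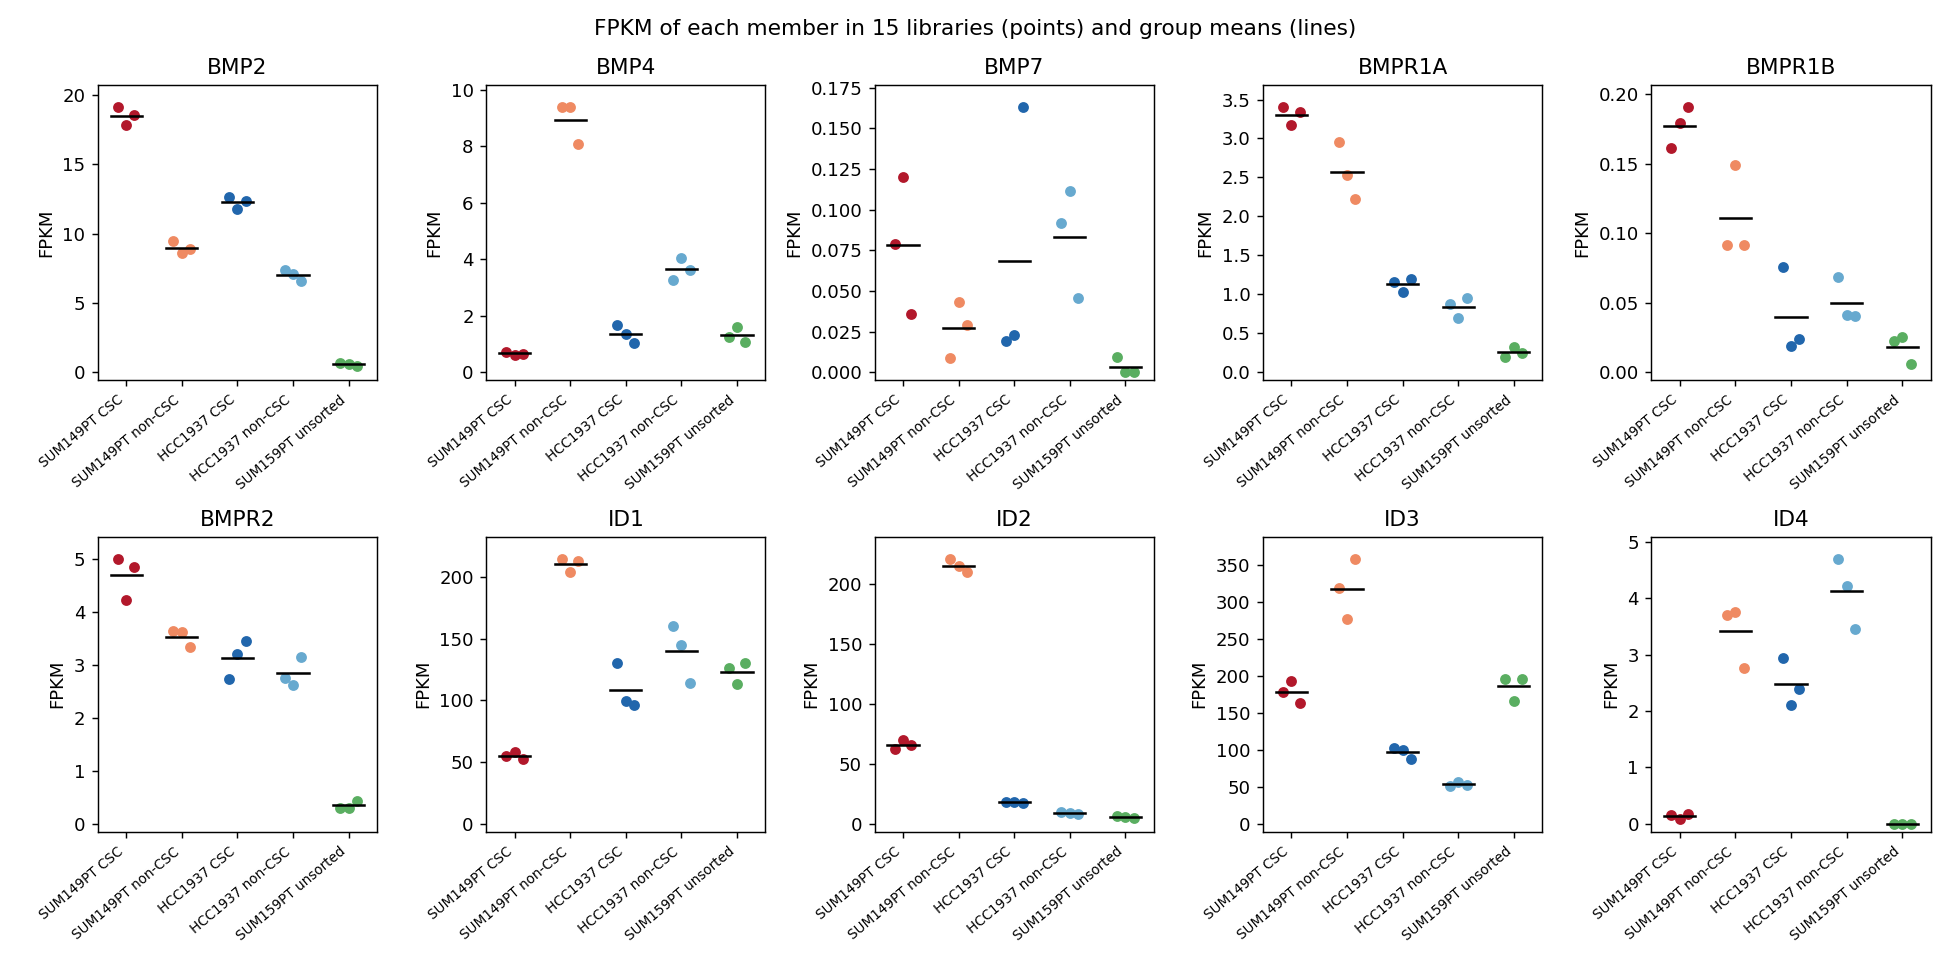
FPKM (vertical axis, its own linear scale from 0 in each panel) of the 10 genes in the 5 groups, with 1 point for each of 3 libraries and a line at the group mean. BMP4, ID1, ID2, ID3 and ID4 were lower in SUM149PT CSCs than in SUM149PT non-CSCs in every library, and ID2 and ID3 were higher in HCC1937 CSCs than in HCC1937 non-CSCs.

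Within SUM149PT, CSCs had more BMP2 and receptor mRNA and less BMP4 and ID mRNA than non-CSCs. BMP2 was 2.05-fold higher, BMP4 11.9-fold lower, and ID1, ID2 and ID3 were 3.81, 3.26 and 1.78-fold lower. Differences were tested with limma on log2(FPKM + 0.1) over all genes that averaged 0.1 FPKM or more, and called at a Benjamini-Hochberg adjusted p of at most 0.05; the added 0.1 makes fold changes of genes with low values smaller than the ratio of their FPKM. Of 9 genes tested, 4 were higher in CSCs, where 33.3% of all 16037 genes tested were, and 5 were lower, where 41.5% were. Their median log2 fold change was -0.83 against -0.11 over all genes. The libraries of the fractions did not overlap for 9 of the 9, as for 78.7% of all genes tested.

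HCC1937 CSCs shared the higher BMP2 and lower BMP4, but their ID2 and ID3 were higher than in non-CSCs. BMP2 was 1.74-fold, ID2 1.98-fold and ID3 1.79-fold higher, and BMP4 was 2.62-fold lower. Of 8 genes tested, 3 were higher in CSCs, against 10.3% of all 15582 genes tested, and 2 were lower, against 15.3%. The remaining 3, BMPR1A, BMPR2 and ID1, did not pass the test. The median log2 fold change of the 8 was 0.26 against -0.032 over all genes, and the fractions did not overlap for 6 of 8, against 43.4% of all genes.

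Of the 8 genes tested in both lines, 5 were called in both. BMP2, BMP4 and ID4 had the same direction in both lines, as did 16.1% of the 14423 genes tested in both. ID2 and ID3 had opposite directions, as did 5.84% of those genes. Among all 3157 genes called in both lines, 73.3% had the same direction and 26.7% opposite ones. The exact two-sided permutation test gave p = 0.10 for 9 genes in SUM149PT and for 6 in HCC1937, which is the smallest p that 3 against 3 libraries allow.

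**Figure D2:**
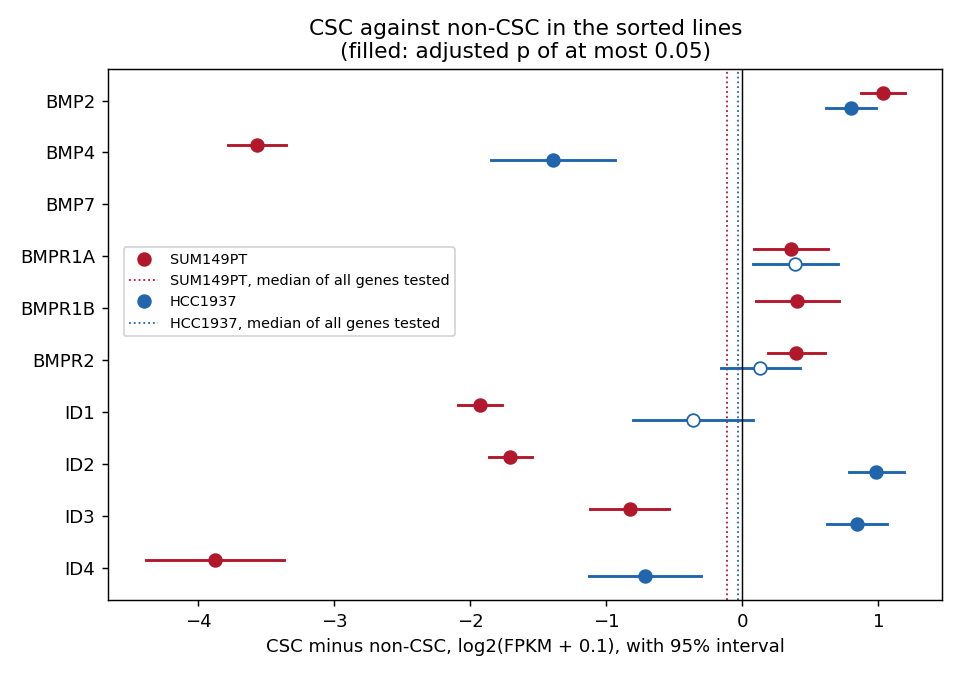
Difference of mean log2(FPKM + 0.1) between CSCs and non-CSCs (horizontal axis) for each gene in SUM149PT and HCC1937, with 95% intervals from limma, filled points for adjusted p of at most 0.05 and dotted lines at the median of all genes tested. ID2 and ID3 lay on opposite sides of 0 in the 2 lines, BMP2 lay right of 0 in both, and BMP7 was not tested.

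Scaling moved the centre of these comparisons. With quantile normalization the median of all genes in SUM149PT went from -0.11 to 0.10 and the share of called genes that were higher in CSCs from 44.6% to 54.9%. In HCC1937 the median went from -0.032 to 0.090 after rescaling to TPM (the same sum in each library) and the share of called genes higher in CSCs from 40.3% to 56.1%, or to 53.0% with quantile normalization. Relative to the median of all genes in SUM149PT, the log2 difference was 1.15 for BMP2, -3.46 for BMP4, 0.47 for BMPR1A, 0.52 for BMPR1B, 0.51 for BMPR2, -1.82 for ID1, -1.59 for ID2, -0.72 for ID3 and -3.76 for ID4. Relative to that of HCC1937 it was 0.83 for BMP2, -1.36 for BMP4, -0.33 for ID1, 1.02 for ID2, 0.87 for ID3 and -0.68 for ID4. Under the values as given, upper quartile scaling, quantile normalization and TPM, none of these genes changed sign on either scale.

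Among the ligands, BMP2 is best known for inducing bone. Its FPKM was 19.1, 17.8 and 18.6 in the CSC libraries of SUM149PT and 9.47, 8.58 and 8.91 in the non-CSC libraries, and 12.6, 11.8 and 12.3 and 7.36, 7.10 and 6.57 in those of HCC1937. In SUM159PT it was 0.633, 0.572 and 0.468. CSCs were high and non-CSCs low in both sorted lines with no overlap, and SUM159PT was far below all sorted libraries. The CSC level rose in SUM149PT (log2 fold change 1.03, SE 0.064, limma adjusted p = 3.82e-05) and in HCC1937 (log2 fold change 0.80, SE 0.074, limma adjusted p = 0.00121), each with all 3 CSC libraries above all 3 non-CSC libraries. From high to low, the groups ran SUM149PT CSC, HCC1937 CSC, SUM149PT non-CSC, HCC1937 non-CSC and SUM159PT, and no neighbours overlapped.

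BMP4, a ligand close to BMP2 in sequence, had the opposite order of fractions. Its FPKM was 0.705, 0.624 and 0.657 in SUM149PT CSCs and 9.39, 9.38 and 8.08 in SUM149PT non-CSCs. In HCC1937 it was 1.67, 1.35 and 1.02 in CSCs and 3.26, 4.03 and 3.63 in non-CSCs, and in SUM159PT 1.23, 1.61 and 1.06. Non-CSCs were high and CSCs low in both lines, and SUM159PT overlapped HCC1937 CSCs while it stayed above SUM149PT CSCs. The CSC level fell in SUM149PT (log2 fold change -3.57, SE 0.085, limma adjusted p = 2.33e-06) and in HCC1937 (log2 fold change -1.39, SE 0.18, limma adjusted p = 0.00398), in 3 of 3 libraries each. The descending order was SUM149PT non-CSC, HCC1937 non-CSC, HCC1937 CSC, SUM159PT and SUM149PT CSC, with an overlap only between HCC1937 CSC and SUM159PT.

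The ratio of BMP2 to BMP4 FPKM set the fractions apart. It was 27.99 ± 0.753 (SD, n = 3) in SUM149PT CSCs and 1.01 ± 0.0942 in their non-CSCs. In HCC1937 it was 9.47 ± 2.32 in CSCs and 1.94 ± 0.273 in non-CSCs, and in SUM159PT 0.436 ± 0.0790. BMP2 was the more abundant of the pair in both CSC fractions and in HCC1937 non-CSCs, BMP4 was so in SUM159PT, and in SUM149PT non-CSCs it depended on the library. The ranges did not overlap between any of the 5 groups: SUM149PT CSC libraries ran from 27.1 to 28.6, HCC1937 CSC from 7.59 to 12.1, HCC1937 non-CSC from 1.76 to 2.26, SUM149PT non-CSC from 0.915 to 1.10 and SUM159PT from 0.355 to 0.513.

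BMP7, a ligand studied in kidney and bone, was close to 0. Its mean FPKM was 0.0829 in HCC1937 non-CSCs, 0.0785 in SUM149PT CSCs, 0.0682 in HCC1937 CSCs, 0.0271 in SUM149PT non-CSCs and 0.00317 in SUM159PT, in descending order, and all neighbours overlapped. It stayed under the minimum of 0.1 FPKM needed for the limma test. The fractions of each line overlapped, and the exact two-sided permutation test gave p = 0.20 in SUM149PT and p = 0.80 in HCC1937.

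The receptors BMPR1A and BMPR2 were expressed at low to moderate levels. FPKM of BMPR1A, a type I receptor kinase, was 3.40, 3.18 and 3.33 in SUM149PT CSCs, 2.95, 2.53 and 2.23 in SUM149PT non-CSCs, 1.15, 1.02 and 1.20 in HCC1937 CSCs, 0.871, 0.696 and 0.949 in HCC1937 non-CSCs and 0.200, 0.323 and 0.246 in SUM159PT. That is also their descending order, and no neighbours overlapped. CSCs were above non-CSCs in all libraries of both lines; the difference passed the test in SUM149PT (log2 fold change 0.36, SE 0.11, limma adjusted p = 0.0256) and not in HCC1937 (log2 fold change 0.39, SE 0.13, limma adjusted p = 0.0764). In SUM149PT the call was lost without CSC replicate 1 (log2 0.34, adjusted p = 0.0736), CSC replicate 3 (log2 0.35, adjusted p = 0.0700), non-CSC replicate 2 (log2 0.35, adjusted p = 0.0658) or non-CSC replicate 3 (log2 0.27, adjusted p = 0.0509, all from limma), and when all genes of the table were tested (limma adjusted p = 0.0789). In HCC1937 quantile normalization gave limma adjusted p = 0.0344 and a replicate block 0.0482, within a range of 0.0344 to 0.208 over the alternatives. Equal replicate numbers are not stated to be pairs.

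BMPR2, the type II receptor whose mutations cause pulmonary arterial hypertension, had an FPKM of 5.005, 4.23 and 4.85 in SUM149PT CSCs and 3.63, 3.61 and 3.35 in SUM149PT non-CSCs. In HCC1937 it was 2.74, 3.20 and 3.46 in CSCs and 2.75, 2.63 and 3.15 in non-CSCs, and in SUM159PT 0.307, 0.306 and 0.432. SUM149PT CSCs were above the other groups in every library, SUM159PT was below them, and the remaining groups overlapped with their neighbours. The level rose in SUM149PT CSCs (log2 fold change 0.40, SE 0.084, limma adjusted p = 0.00633, 3 of 3 libraries above all non-CSC libraries). In HCC1937 the fractions overlapped (log2 0.13, 95% interval -0.16 to 0.42, limma adjusted p = 0.464).

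BMPR1B, the other type I receptor of the group, ran from 0.161 to 0.191 FPKM in SUM149PT CSCs and from 0.0913 to 0.149 in non-CSCs. It did not pass 0.0758 FPKM in any HCC1937 library or 0.0252 in SUM159PT. SUM149PT CSCs were above SUM149PT non-CSCs, which were above the other 3 groups. Of those, HCC1937 CSCs overlapped HCC1937 non-CSCs and SUM159PT, while HCC1937 non-CSCs lay above SUM159PT. It reached the minimum for a test in SUM149PT only, where it was higher in CSCs (log2 fold change 0.41, SE 0.12, limma adjusted p = 0.0253). That call was lost without CSC replicate 2 (log2 0.40, adjusted p = 0.0673), CSC replicate 3 (log2 0.37, adjusted p = 0.0777), non-CSC replicate 1 (log2 0.34, adjusted p = 0.0769) or non-CSC replicate 3 (log2 0.34, adjusted p = 0.0761, all from limma). It was also lost with 1 FPKM added before the logarithm (log2 0.084), with a variance trend in limma, and when all genes were tested, with limma adjusted p from 0.000666 to 0.151 over the alternatives.

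Summed over the 3 receptors, the level was 8.18 ± 0.523 FPKM (SD, n = 3) in SUM149PT CSCs, 6.21 ± 0.508 in SUM149PT non-CSCs, 4.30 ± 0.360 in HCC1937 CSCs, 3.73 ± 0.386 in HCC1937 non-CSCs and 0.623 ± 0.0822 in SUM159PT. SUM149PT libraries were above HCC1937 libraries, the fractions of HCC1937 overlapped, and SUM159PT was lowest. BMPR2 was the most abundant receptor in every group.

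The ID genes are the targets among the 10 genes, and their promoters are shown because BMP signaling is known to act on ID genes through SMAD-binding sequences. RefSeq promoters were matched for 8 of the 10 genes, with no entry for BMP2 and BMP7. The 250 bases before the RefSeq start of each ID gene are printed 5′ to 3′ on the strand of the gene, in build GRCh38.p14, and capitals mark matches on either strand to the motif GGCGCC, to the motif GGAGCC (which reads GGCTCC when it lies on the other strand) or to the motif CAGAC (which then reads GTCTG). Elements of the GGCGCC kind and its GGAGCC variant are known to be bound by SMAD1 and SMAD5, while CAGAC is the SMAD box. The windows are chr20:31605039-31605288 (forward) for ID1, chr2:8681806-8682055 (forward) for ID2, chr1:23559502-23559751 (reverse) for ID3 and chr6:19837120-19837369 (forward) for ID4.
ID1: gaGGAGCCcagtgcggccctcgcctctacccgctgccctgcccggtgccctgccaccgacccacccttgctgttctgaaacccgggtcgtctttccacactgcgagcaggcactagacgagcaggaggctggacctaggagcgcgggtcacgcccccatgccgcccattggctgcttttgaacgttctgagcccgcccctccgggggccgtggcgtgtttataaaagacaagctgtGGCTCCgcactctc
ID2: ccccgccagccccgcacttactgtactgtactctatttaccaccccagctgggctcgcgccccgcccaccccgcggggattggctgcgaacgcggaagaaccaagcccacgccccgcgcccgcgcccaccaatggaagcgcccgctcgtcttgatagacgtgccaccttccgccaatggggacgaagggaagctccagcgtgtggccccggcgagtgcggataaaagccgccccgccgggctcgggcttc
ID3: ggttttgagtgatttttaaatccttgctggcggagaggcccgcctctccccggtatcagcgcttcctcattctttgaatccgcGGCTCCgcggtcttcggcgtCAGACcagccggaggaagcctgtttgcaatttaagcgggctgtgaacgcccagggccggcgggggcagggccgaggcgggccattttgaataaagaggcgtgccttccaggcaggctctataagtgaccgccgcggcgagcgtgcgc
ID4: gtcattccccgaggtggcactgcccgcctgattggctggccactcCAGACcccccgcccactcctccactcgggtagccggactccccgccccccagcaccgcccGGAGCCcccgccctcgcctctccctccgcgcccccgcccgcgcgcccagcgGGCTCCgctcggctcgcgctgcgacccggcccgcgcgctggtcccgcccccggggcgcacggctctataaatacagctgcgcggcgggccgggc
GGAGCC was found 248 and 14 bases before the start in ID1, 167 bases before it in ID3, and 145 and 94 bases before it in ID4. CAGAC was found 147 bases before the start in ID3 and 205 bases before it in ID4. The ID2 window held none of the 3, and GGCGCC was in none of the 4 windows. Bases farther upstream or after the start were not searched, so matches there are not known. Of 35116 RefSeq promoters of the same length, 16.4% held GGCGCC, 30.6% GGAGCC and 38.0% CAGAC. GC content of the windows was 66.0% for ID1, 69.2% for ID2, 62.0% for ID3 and 78.8% for ID4.

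ID1, studied in endothelial and tumor cells, had an FPKM of 55.2, 58.2 and 52.2 in SUM149PT CSCs and 215, 204 and 213 in SUM149PT non-CSCs. In HCC1937 it was 130.3, 99.8 and 96.1 in CSCs and 160.5, 145 and 114 in non-CSCs, and in SUM159PT 126, 114 and 130.1. SUM149PT non-CSCs were high and SUM149PT CSCs low, both apart from all other groups, and the other groups overlapped with their neighbours between these levels. The CSC level fell in SUM149PT (log2 fold change -1.93, SE 0.064, limma adjusted p = 4.96e-06, 3 of 3 libraries). In HCC1937 CSC replicate 1 lay above non-CSC replicate 3 and the difference did not pass the test (log2 -0.36, 95% interval -0.80 to 0.080, limma adjusted p = 0.203).

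ID2, known for its part in mammary gland development, had the widest range across the lines among ID1, ID2 and ID3. Its FPKM was 62.6, 69.5 and 65.9 in SUM149PT CSCs and 221, 215 and 209.6 in SUM149PT non-CSCs, against 18.2, 18.2 and 17.3 in HCC1937 CSCs and 9.83, 8.74 and 8.47 in HCC1937 non-CSCs. In SUM159PT it was 6.55, 5.73 and 5.07. Both SUM149PT fractions were above all other libraries, CSCs were the low fraction in SUM149PT and the high fraction in HCC1937, and no neighbours overlapped. The CSC level fell in SUM149PT (log2 fold change -1.70, SE 0.063, limma adjusted p = 6.73e-06) and rose in HCC1937 (log2 fold change 0.99, SE 0.082, limma adjusted p = 0.000859), in 3 of 3 libraries each.

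ID3 was the most abundant ID gene in SUM149PT and SUM159PT. Its FPKM was 178, 193 and 164 in SUM149PT CSCs and 318, 276 and 358 in SUM149PT non-CSCs, 102, 99.2 and 87.8 in HCC1937 CSCs and 51.4, 56.7 and 52.9 in HCC1937 non-CSCs. In SUM159PT it was 196, 165 and 195. SUM149PT non-CSCs were highest, SUM159PT overlapped SUM149PT CSCs, and HCC1937 CSCs and HCC1937 non-CSCs followed with no overlap. The CSC level fell in SUM149PT (log2 fold change -0.83, SE 0.12, limma adjusted p = 0.00118) and rose in HCC1937 (log2 fold change 0.84, SE 0.088, limma adjusted p = 0.00180), in 3 of 3 libraries each.

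ID4, studied in mammary stem and basal cells, was expressed at a lower level than the other ID genes. Its FPKM was 0.160, 0.0826 and 0.180 in SUM149PT CSCs and 3.70, 3.76 and 2.76 in SUM149PT non-CSCs, 2.93, 2.10 and 2.40 in HCC1937 CSCs and 4.70, 4.21 and 3.45 in HCC1937 non-CSCs. It was listed at 0 in each SUM159PT library. SUM149PT CSCs were near 0, and the remaining 3 groups lay together, where HCC1937 non-CSCs overlapped SUM149PT non-CSCs and these overlapped HCC1937 CSCs. The CSC level fell in SUM149PT (log2 fold change -3.88, SE 0.20, limma adjusted p = 2.16e-05, 3 of 3 libraries; log2 -1.94 with 1 FPKM added). It also fell in HCC1937 (log2 fold change -0.71, SE 0.17, limma adjusted p = 0.0280, 3 of 3 libraries), but that call was lost without CSC replicate 2 (log2 -0.61, adjusted p = 0.0781), CSC replicate 3 (log2 -0.70, adjusted p = 0.0800), non-CSC replicate 1 (log2 -0.61, adjusted p = 0.0882) or non-CSC replicate 2 (log2 -0.69, adjusted p = 0.0898, all from limma), and when all genes of the table were tested (limma adjusted p = 0.108).

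The sum of the 4 ID genes and its make-up differed in their pattern. The sum was 299.5 ± 19.6 FPKM (SD, n = 3) in SUM149PT CSCs and 747 ± 43.2 in SUM149PT non-CSCs, and 226 ± 25.7 in HCC1937 CSCs, 207 ± 24.7 in HCC1937 non-CSCs and 315 ± 26.1 in SUM159PT. SUM149PT non-CSCs stood above all other groups, and the fractions of HCC1937 overlapped. ID1 made up 18.5% of the sum in SUM149PT CSCs and 28.2% in non-CSCs, and 48.0% and 67.4% in HCC1937. ID3 made up 59.4% and 42.4% in SUM149PT, 42.9% and 26.2% in HCC1937. In both lines CSCs thus had a larger share of ID3 and a smaller share of ID1 than non-CSCs, with no overlap of the libraries. The ratio of ID3 to ID1 was 3.22 ± 0.0887 and 1.51 ± 0.163 in CSCs and non-CSCs of SUM149PT, 0.898 ± 0.105 and 0.392 ± 0.0718 in HCC1937 and 1.503 ± 0.0472 in SUM159PT. ID2 made up 22.1% and 28.9% in SUM149PT, 7.998% and 4.38% in HCC1937 and 1.85% in SUM159PT.

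**Figure D3:**
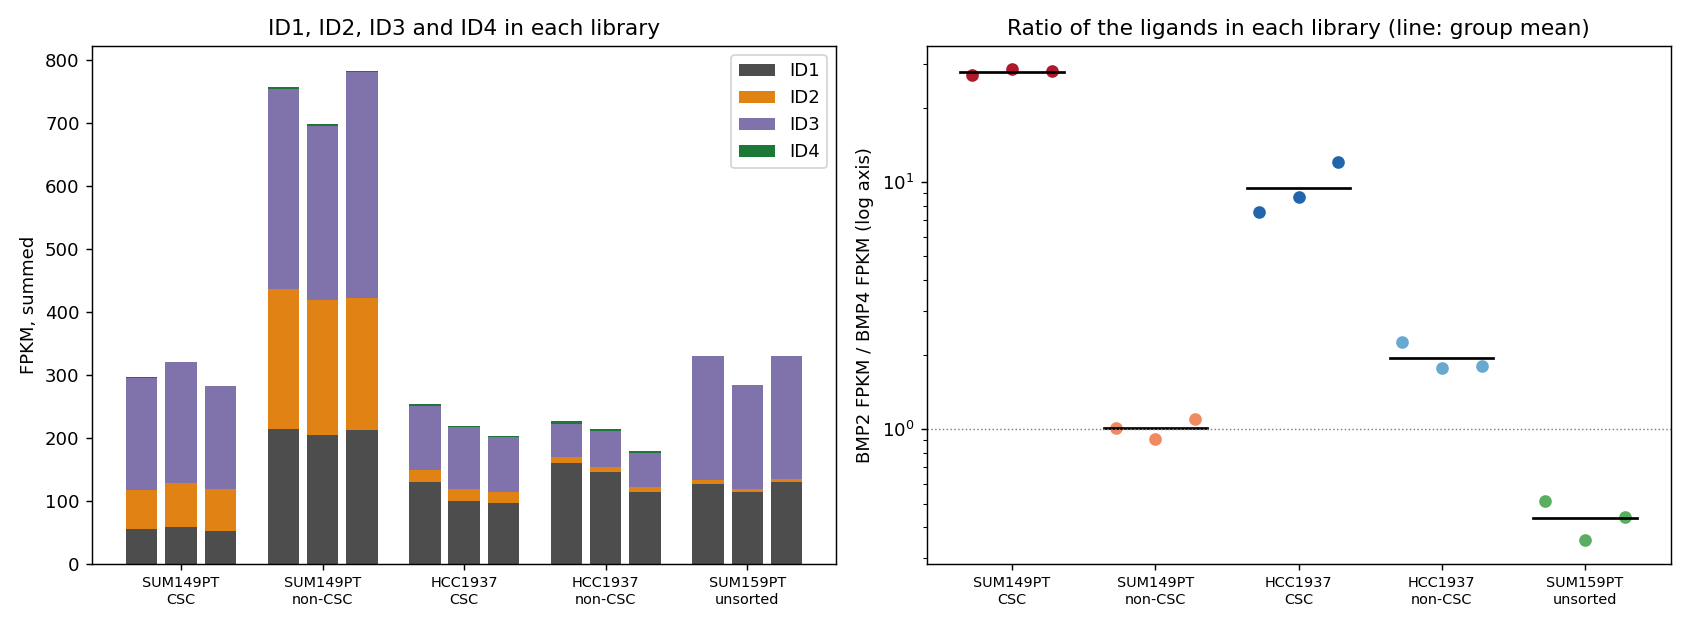
Left, FPKM of ID1, ID2, ID3 and ID4 stacked for each of the 15 libraries from 0; right, the ratio of BMP2 to BMP4 FPKM in each library on a log axis, with lines at group means. The ID sum was highest in the 3 SUM149PT non-CSC libraries, and the ligand ratio was higher in CSCs than in non-CSCs of both sorted lines.

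The difference of the CSC effect between the lines was tested as the interaction of line and fraction, SUM149PT minus HCC1937, in the 12 sorted libraries. The fall of the ID genes and of BMP4 in CSCs was the stronger, or the opposite, in SUM149PT. Of 8 genes tested, 5 had a lower CSC effect in SUM149PT, against 33.0% of all 16451 genes tested, and 1 a higher one, against 28.1%. The 5 were BMP4 (log2 fold change -2.18, SE 0.21, limma adjusted p = 1.27e-05), ID1 (log2 -1.57), ID2 (log2 fold change -2.69, SE 0.098, limma adjusted p = 2.20e-08), ID3 (log2 -1.67) and ID4 (log2 -3.16). The median of the 8 was -1.62 against -0.079 over all genes. For ID1, which passed the test in SUM149PT only, the difference itself passed it (log2 fold change -1.57, SE 0.20, limma adjusted p = 7.54e-05).

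BMP2 was the gene with a higher CSC effect in SUM149PT (log2 fold change 0.24, SE 0.091, limma adjusted p = 0.0443), a small difference close to the limit of the test. With any library left out it was 0.20 to 0.28. The call was lost without SUM149PT CSC replicate 1 (log2 0.21, adjusted p = 0.0962) or 3 (log2 0.23, adjusted p = 0.0812) and without SUM149PT non-CSC replicate 2 (log2 0.20, adjusted p = 0.0979) or 3 (log2 0.23, adjusted p = 0.0775, all from limma). It was also lost without HCC1937 CSC replicate 2 (log2 0.21, adjusted p = 0.0967) or 3 (log2 0.24, adjusted p = 0.0659) and without HCC1937 non-CSC replicate 1 (log2 0.20, adjusted p = 0.0984) or 2 (log2 0.23, adjusted p = 0.0850, all from limma). As TPM it was 0.16, and in the fit over 15 libraries 0.24 (adjusted p = 0.120, limma), neither called. The limma adjusted p ran from 0.00492 to 0.206 over the alternatives. The receptors had no called difference: log2 -0.031 for BMPR1A (95% interval -0.42 to 0.35) and 0.26 for BMPR2 (95% interval -0.062 to 0.59). The median of all genes moved from -0.079 to -0.17 as TPM and 0.061 with quantile normalization. Relative to it, the difference under the 4 scalings was -2.17 to -2.09 for BMP4, -1.54 to -1.48 for ID1, -2.67 to -2.61 for ID2, -1.85 to -1.59 for ID3, -3.55 to -2.94 for ID4 and 0.23 to 0.32 for BMP2.

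The lines were also compared within a fraction, HCC1937 against SUM149PT. Among CSCs, HCC1937 had more BMP4, ID1 and ID4 and less BMP2, BMPR1A, BMPR2, ID2 and ID3. That is 3 higher of 8 tested, against 45.3% of all genes, and 5 lower, against 31.7%. The largest difference in each direction was in the ID genes, ID4 (log2 fold change 3.43, SE 0.20, limma adjusted p = 7.85e-08) and ID2 (log2 fold change -1.87, SE 0.069, limma adjusted p = 3.00e-09), and all 3 libraries of a line lay on one side of the other for these genes. BMP4 differed by a log2 of 0.90, ID1 by 0.96, BMP2 by -0.59, BMPR1A by -1.48, BMPR2 by -0.57 and ID3 by -0.88. Quantile normalization moved the median of all genes from 0.23 to 0.050; relative to the median, ID4 was 3.07 to 3.66, ID1 0.71 to 0.76, BMP4 0.57 to 0.72, BMP2 -0.84 to -0.82, BMPR2 -0.83 to -0.75, ID3 -1.13 to -0.99, BMPR1A -1.78 to -1.66 and ID2 -2.12 to -2.10 under the 4 scalings.

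Among non-CSCs, HCC1937 was lower for all genes tested but ID4. In limma 0 of 8 were higher, also at an unadjusted p under 0.05, against 41.7% of all genes, and 7 were lower, against 35.7%. ID2 (log2 fold change -4.57, SE 0.069, limma adjusted p = 2.11e-11) and ID3 (log2 fold change -2.56, SE 0.11, limma adjusted p = 7.86e-09) differed most, with no overlap of libraries. BMPR1A differed by a log2 of -1.51, BMP4 by -1.28, ID1 by -0.60 and BMP2 by -0.35, and ID4 did not pass the test (0.27, 95% interval -0.17 to 0.71). The call of BMPR2 (log2 -0.31, limma adjusted p = 0.0202) was lost without SUM149PT replicate 1 (-0.29, adjusted p = 0.0577) or 2 (-0.29, adjusted p = 0.0554) and without HCC1937 replicate 1 (-0.29, adjusted p = 0.0575) or 2 (-0.25, adjusted p = 0.0738, all from limma). It was also lost with the trend on transcript length removed (-0.084, adjusted p = 0.330, limma), an alternative chosen after seeing the data. With upper quartile scaling the median of all genes moved from 0.097 to -0.060, and relative to it ID2 was -4.72 to -4.66, ID3 -2.79 to -2.65, BMPR1A -1.69 to -1.55, BMP4 -1.47 to -1.37, ID1 -0.73 to -0.70, BMP2 -0.54 to -0.45 and BMPR2 -0.42 to -0.40 under the 4 scalings.

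SUM159PT, which the study treated as CSCs, had little BMP2, receptor and ID2 mRNA, ID4 listed at 0, and ID1 and ID3 at levels like those of the sorted lines. Against SUM149PT CSCs, 2 of 8 genes tested were higher, where 28.3% of all 16373 genes were, and 5 were lower, where 53.3% were. BMP4 (log2 fold change 0.86, SE 0.17, limma adjusted p = 0.000350) and ID1 (log2 fold change 1.16, SE 0.13, limma adjusted p = 2.97e-06) were higher, in 3 of 3 libraries each. BMP2 (log2 fold change -4.83, SE 0.088, limma adjusted p = 8.16e-14), BMPR1A (log2 fold change -3.27, SE 0.14, limma adjusted p = 1.22e-10), BMPR2 (log2 fold change -3.43, SE 0.12, limma adjusted p = 1.95e-11), ID2 (log2 fold change -3.50, SE 0.090, limma adjusted p = 9.95e-13) and ID4 were lower, and ID3 overlapped (log2 0.058, 95% interval -0.18 to 0.29). The ID4 call sets 0.0826 to 0.180 FPKM in SUM149PT CSCs against 0, and its size (log2 -1.24) depends on the added 0.1. Against HCC1937 CSCs, 1 gene, ID3 (log2 fold change 0.94, SE 0.11, limma adjusted p = 2.97e-06), was higher, where 27.6% of all genes were. BMP2, BMPR1A, BMPR2, ID2 and ID4 were lower, 5 against 57.2%. Of these, BMP2 had a log2 of -4.24, BMPR1A -1.79, BMPR2 -2.85 and ID2 -1.62. BMP4 (log2 -0.037) and ID1 (log2 0.19) did not pass the test with the values as given, although ID1 did without HCC1937 CSC replicate 1 (log2 0.33, adjusted p = 0.0265, limma). Both comparisons use the same SUM159PT libraries, and in neither was ID4 followed as a single gene under the alternatives.

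Scaling moved the median most in these comparisons. The median of all genes was -0.60 against SUM149PT CSCs and -0.85 against HCC1937 CSCs, and ran from -1.63 as TPM to 0.058 with quantile normalization in the former and from -1.83 to 0.023 in the latter. Of the genes called against SUM149PT CSCs, 34.7% were higher, 17.3% as TPM and 50.6% with quantile normalization. Against HCC1937 CSCs they were 32.5%, 17.1% and 50.1%, and 42.9% with upper quartile scaling. Relative to the median, BMP2 was -4.37 to -3.56 and -3.49 to -2.65 under the 4 scalings, BMPR1A -2.86 to -1.84 and -1.04 to -0.19, BMPR2 -2.99 to -1.95 and -2.12 to -1.17, and ID2 -3.13 to -2.75 and -0.89 to -0.63. BMP4 was 1.47 to 2.11 and 0.81 to 1.55. ID1 was 0.41 to 1.91 and -0.41 to 1.19 and ID3 -0.73 to 0.82 and 0.28 to 1.94, so that ID3 against SUM149PT CSCs and ID1 against HCC1937 CSCs changed sign with the scaling. These were also called in opposite directions without centring on the median: ID3 against SUM149PT CSCs was higher with upper quartile scaling (0.50, adjusted p = 0.00106) and lower with quantile normalization (-0.67, adjusted p = 1.64e-05) and TPM (-1.03, adjusted p = 4.80e-07, all from limma). ID1 against HCC1937 CSCs was higher with upper quartile scaling (0.83, adjusted p = 2.81e-05) and lower with quantile normalization (-0.38, adjusted p = 0.00346) and TPM (-0.81, adjusted p = 9.10e-06, all from limma). BMP4 against HCC1937 CSCs was higher with upper quartile scaling (0.56, adjusted p = 0.00384) and quantile normalization (1.58, adjusted p = 4.41e-07) and lower as TPM (-1.01, adjusted p = 7.47e-05, all from limma). Not relative to the median, BMP4 against SUM149PT CSCs ran from -0.13 to 2.17 and ID3 against HCC1937 CSCs from -0.063 to 1.58, and the calls of BMP4, ID1 and ID3 as higher were lost as TPM.

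Differences from SUM159PT also followed the GC content of transcripts. Of 16373 genes tested, 14188 (86.7%) had an annotated transcript, and in 3 equal groups of rising GC content the median difference from SUM149PT CSCs was -2.38, -0.60 and 0.52, and from HCC1937 CSCs -2.54, -0.82 and 0.27. Transcript GC content was 38.1% for BMPR2, 42.3% for BMPR1A, 47.0% for ID4, 48.8% for ID2, 52.1% for BMP2, 54.0% for BMP4, 57.2% for ID3 and 58.1% for ID1. The receptors, low in GC, thus lay among genes that were low in SUM159PT as a whole, while BMP2 lay far below genes of its GC content.

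With a smooth trend on GC content removed from each library, an alternative chosen after seeing the data, 48.0% of the genes called against SUM149PT CSCs were higher and 48.4% of those called against HCC1937 CSCs, or 50.5% and 50.1% with a trend on transcript length removed instead. BMP2 stayed low (log2 -4.53 and -3.67), and ID2 was at -2.53 and -0.45. Against SUM149PT CSCs, BMPR1A moved to -0.96 (limma adjusted p = 1.66e-05) and BMPR2 to -0.66 (limma adjusted p = 5.09e-05). Against HCC1937 CSCs, BMPR1A turned to higher in SUM159PT (log2 0.62, limma adjusted p = 0.000664, range 3.67e-09 to 0.303 over the alternatives; log2 -0.16 with quantile normalization and -0.22 with the length trend removed, neither called) and BMPR2 was at 0.042 (limma adjusted p = 0.706). ID1 was at 0.65 and 0.0058 and ID3 at -0.39 and 0.82. The part of library preparation in this trend was not tested, and line and sorting cannot be told apart here, because SUM159PT had no sorted libraries.

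**Figure D4:**
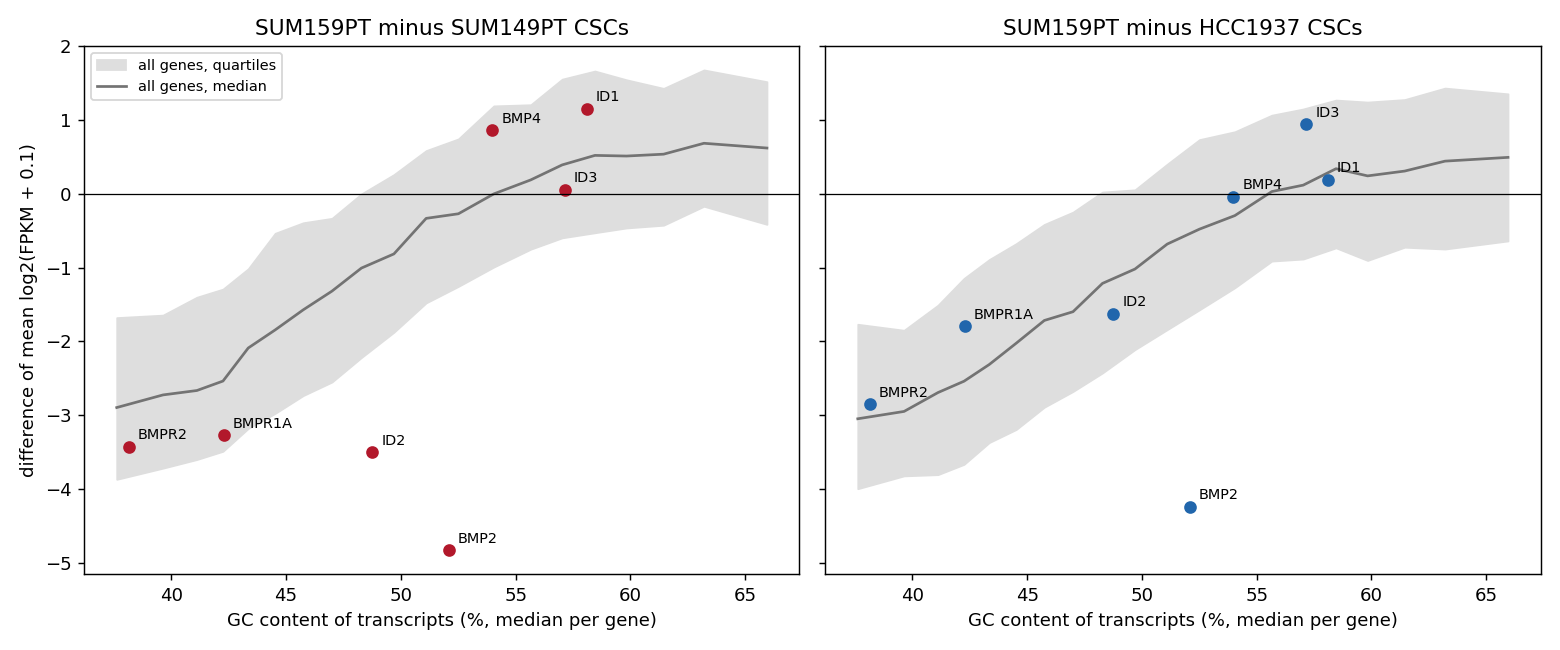
Difference of mean log2(FPKM + 0.1) of SUM159PT from SUM149PT CSCs (left) and from HCC1937 CSCs (right) against the median GC content of a gene's transcripts in percent; lines and bands are the median and quartiles of all genes in bins of GC content, points the genes of the BMP and ID group. BMP2 lay below the band in both panels, ID2 below it in the left panel only, and BMPR1A and BMPR2 inside it in both panels.

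Other genes of the pathway were listed by role, 53 in all and each in the table. In SUM149PT, 36 were tested, of which 21 were higher and 10 lower in CSCs, against 33.3% and 41.5% of all genes, with a median log2 of 0.52 against -0.11 over all genes. In HCC1937, 33 were tested, 11 were higher and 5 lower, against 10.3% and 15.3%, with a median of 0.17 against -0.032. Without HCC1937 non-CSC replicate 1, 7 were higher and 3 lower. Of 13 called in both lines, 11 had the same direction, against 73.3% of all genes called in both, and GREM1 and BMPER had opposite ones. Both were low in 1 line. BMPER did not pass 0.257 FPKM in a SUM149PT library, where its call held in 16 of 16 alternatives. GREM1 did not pass 0.299 FPKM in an HCC1937 library, where its call held in 9 of 16. The interaction was called for 27 of 39, with 16 higher and 11 lower in SUM149PT, against 28.1% and 33.0% of all genes.

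Signal transducers were mostly higher in SUM149PT CSCs. Of the SMADs and SMURF ubiquitin ligases, 7 of 8 tested were higher and 0 lower in SUM149PT CSCs by limma, also at an unadjusted p under 0.05, against 33.3% and 41.5% of all genes. In HCC1937 4 of 7 were higher and 1 lower, against 10.3% and 15.3%, but only SMAD7 held in all alternatives. There SMAD5 was called in 10 of 18 alternatives and not without CSC replicate 1, 2 or 3 (log2 0.40, 0.32 and 0.38) or non-CSC replicate 1 or 2 (0.33 and 0.33). Nor was it called as TPM (0.495, adjusted p = 0.0502), with no minimum (adjusted p = 0.0851) or with a replicate block (adjusted p = 0.0862, all from limma). SMURF2 was called in 11 of 18 and not without CSC replicate 1, 2 or 3 (log2 0.29, 0.30 and 0.25) or non-CSC replicate 1, 2 or 3 (0.26, 0.27 and 0.31). A replicate block ended its call too (0.28, limma adjusted p = 0.0662). SMURF1, the lower gene, was called in 10 of 18 and not without CSC replicate 1 or 2 (log2 -0.41 and -0.44) or non-CSC replicate 1 or 3 (-0.45 and -0.40), nor with upper quartile scaling (-0.40, adjusted p = 0.0707), quantile normalization (-0.40, adjusted p = 0.0566), TPM (-0.34, adjusted p = 0.167) or no minimum (-0.46, adjusted p = 0.0756, all from limma). SMAD1, a BMP-activated SMAD, averaged 8.30 FPKM in SUM149PT CSCs against 4.18 in the non-CSC fraction (log2 fold change 0.98, SE 0.069, limma adjusted p = 6.17e-05), but it did not pass the test in HCC1937 (log2 -0.32), and its interaction did (log2 fold change 1.29, SE 0.13, limma adjusted p = 1.45e-05). SMAD7, an inhibitory SMAD, was higher in both (log2 fold change 1.29, SE 0.077, limma adjusted p = 3.41e-05 in SUM149PT; log2 fold change 0.65, SE 0.087, limma adjusted p = 0.00403 in HCC1937). So was SMAD6, which inhibits BMP signals in particular (log2 1.38 and 1.29), although in HCC1937 its call was lost without non-CSC replicate 1 (log2 1.20, adjusted p = 0.0509) and with no minimum (1.29, adjusted p = 0.0654, both from limma), among 3 of 17 alternatives. SMAD9 was at 2.07 FPKM in SUM149PT CSCs and 0.362 in non-CSCs (log2 2.24) and was too low for a test in HCC1937. Among genes with low values, 1 FPKM added before the logarithm made the change smaller in SUM149PT, to 1.17 for SMAD9, 1.12 for MSX2, 2.14 for NOG, -2.29 for GREM1 and -1.12 for RGMA, with every call kept.

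Among the remaining receptors and co-receptors, 3 of 7 tested were higher and 2 lower in SUM149PT CSCs (all genes 33.3% and 41.5%), and 2 of 7 higher and 1 lower in HCC1937 CSCs (all genes 10.3% and 15.3%). The repulsive guidance molecules, co-receptors of BMPs, moved apart: RGMB was higher in CSCs (log2 1.63 in SUM149PT and 1.43 in HCC1937) and RGMA lower (log2 -3.02 and -1.79). ACVR1, a type I receptor, had a higher level than BMPR1A, 16.0 FPKM in SUM149PT CSCs and 3.63 in HCC1937 CSCs, and rose in SUM149PT CSCs (log2 0.33). In HCC1937 it was at log2 0.16, called as TPM alone (0.29, adjusted p = 0.0495, limma), and the difference between the lines did not pass the test (0.17, limma adjusted p = 0.247). Of the other ligands, 1 of 4 tested was higher and 2 lower in SUM149PT CSCs (all genes 33.3% and 41.5%), and none averaged above 1 FPKM in a sorted group. In HCC1937, 0 of 3 were called by limma (1, BMP6, at an unadjusted p under 0.05), against 10.3% of all genes higher and 15.3% lower. BMP6 was called lower there in the fit over 15 libraries (log2 -0.48, adjusted p = 0.0443) and without CSC replicate 2 (-0.59, adjusted p = 0.0441, both from limma). The ligand higher in SUM149PT CSCs, BMP8B, lost its call without CSC replicate 1 (log2 0.48, adjusted p = 0.0888) or 3 (0.68, adjusted p = 0.0991) or non-CSC replicate 1 (0.76, adjusted p = 0.0731), 2 (0.57, adjusted p = 0.118) or 3 (0.75, adjusted p = 0.0754, all from limma), and was called in 10 of 17 alternatives.

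Secreted antagonists bind BMPs outside the cell. In SUM149PT CSCs 3 of 7 tested were higher and 3 lower (all genes 33.3% and 41.5%), and in HCC1937 CSCs 3 of 8 higher and 1 lower (all genes 10.3% and 15.3%). Noggin (NOG) was at 5.75, 4.95 and 4.71 FPKM in SUM149PT CSCs and 0.399, 0.0624 and 0.791 in non-CSCs. CSCs were high in all libraries (log2 fold change 3.65, SE 0.61, limma adjusted p = 0.00241), while HCC1937 CSCs and non-CSCs were alike in level, at 1.55 and 1.72 FPKM (log2 -0.14), and the interaction was called (log2 fold change 3.79, SE 0.67, limma adjusted p = 0.000763). GREM1 was lower in SUM149PT CSCs, at 0.277 FPKM against 5.28 (log2 -3.84). In HCC1937 GREM1 did not pass 0.299 FPKM in a library, and its call as higher in CSCs (log2 0.96) was lost without CSC replicate 2 (log2 1.01, adjusted p = 0.0802) or non-CSC replicate 1 (log2 1.06, adjusted p = 0.0691), 2 (log2 0.95, adjusted p = 0.101) or 3 (log2 0.87, adjusted p = 0.102, all from limma). CHRDL1 was at 5.55 FPKM in HCC1937 CSCs and 0.903 in non-CSCs (log2 fold change 2.56, SE 0.29, limma adjusted p = 0.00231).

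Of other BMP target genes, 4 of 7 were higher and 3 lower in SUM149PT CSCs (all genes 33.3% and 41.5%), and 2 of 6 higher and 2 lower in HCC1937 CSCs (all genes 10.3% and 15.3%). BAMBI, 1 of the 2 lower there, lost its call without non-CSC replicate 1 (log2 -0.49, adjusted p = 0.0578) or 2 (-0.50, adjusted p = 0.0584) and with no minimum (adjusted p = 0.05004, all from limma). ATOH8 was at 7.36, 7.53 and 7.98 FPKM in SUM149PT CSCs and 0.946, 0.923 and 1.09 in non-CSCs. It rose in CSCs of SUM149PT (log2 fold change 2.83, SE 0.081, limma adjusted p = 3.40e-06) and of HCC1937 (log2 fold change 1.73, SE 0.32, limma adjusted p = 0.0125), where it was at 0.537 and 0.102 FPKM. HEY1 also rose in both lines (log2 0.63 and 0.75), although with all genes of the table tested ATOH8 and HEY1 lost their calls in HCC1937 (limma adjusted p = 0.0674 and 0.0571), as did ATOH8 with 0.01 FPKM added before the logarithm (log2 2.64, adjusted p = 0.0524, limma), and DLX3 fell in both (log2 -4.84 and -2.10). MSX1 and MSX2 rose in SUM149PT (log2 1.73 and 2.24) and not in HCC1937 (log2 0.14 and 0.50), and the interaction was called for both (1.59 and 1.74). The E proteins, partners that ID proteins bind, rose in SUM149PT CSCs, 3 of 3 against 33.3% of all genes: TCF3 (log2 0.57), TCF4 (log2 1.12) and TCF12 (log2 1.58). In HCC1937 0 of 2 were called by limma (1 at an unadjusted p under 0.05), against 10.3% of all genes higher and 15.3% lower: TCF12 was at log2 0.17, and TCF3 (log2 0.26) passed the test with upper quartile scaling (0.32, adjusted p = 0.0204), quantile normalization (0.33, adjusted p = 0.0147), TPM (0.39, adjusted p = 0.0213, all from limma) and 6 other alternatives. The interaction was called for TCF3 (0.31), except as TPM (0.23, adjusted p = 0.0601, limma), TCF4 (1.07) and TCF12 (1.41). TCF4 did not pass 0.0068 FPKM in any HCC1937 library and was too low for a test there. Its interaction thus sets the SUM149PT difference against values near 0.

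**Figure D5:**
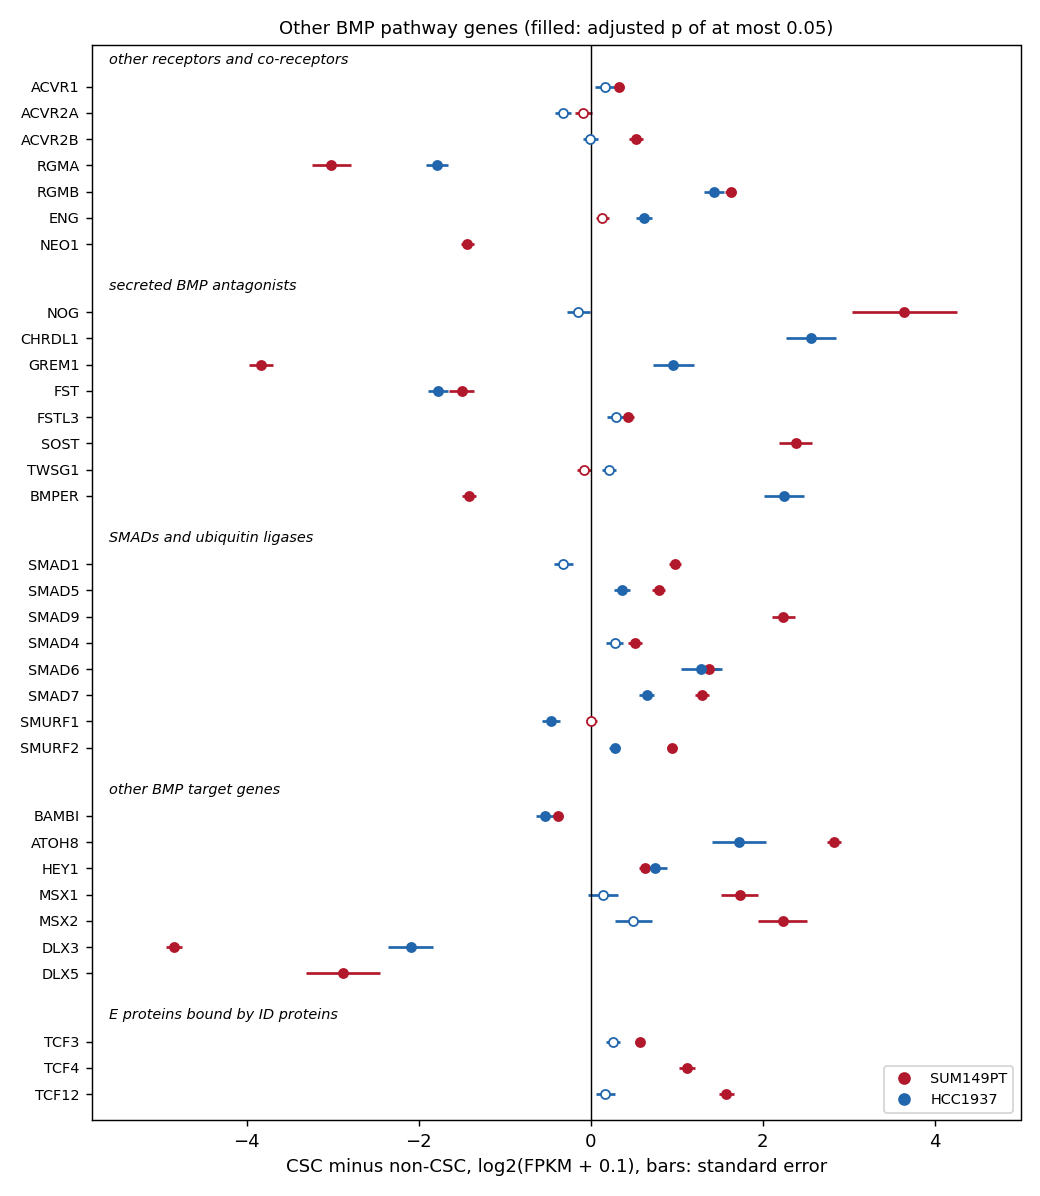
Difference of mean log2(FPKM + 0.1) between CSCs and non-CSCs (horizontal axis, bars are standard errors from limma) for pathway genes that averaged 1 FPKM or more in any group, by role, filled where adjusted p was at most 0.05. SMAD6, SMAD7, ATOH8 and RGMB lay right of 0 in both lines, RGMA, FST and DLX3 left of 0, and GREM1 and BMPER on opposite sides.

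In SUM159PT, 7 of 40 pathway genes tested were higher and 27 lower than in SUM149PT CSCs, against 28.3% and 53.3% of all genes (median log2 -1.56 against -0.60). Compared with HCC1937 CSCs, 13 were higher and 21 lower, against 27.6% and 57.2% (median -0.74 against -0.85). These counts are for FPKM as given. Among all genes called against SUM149PT CSCs, the higher share ran from 17.3% as TPM to 50.6% with quantile normalization. Against HCC1937 CSCs it ran from 17.1% to 50.1%. ATOH8 was at 21.3, 22.5 and 22.1 FPKM and NOG at 6.66, 7.16 and 5.14 in its libraries. In FPKM as given, ATOH8 lay above every sorted library, while NOG overlapped SUM149PT CSCs.

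Genes with a pattern most like that of each ID gene were ranked by the root mean square difference of centred log2(FPKM + 0.1) over the 15 libraries, among 12164 genes that averaged 1 FPKM or more. Nearest to ID1 were ACADVL (0.17), C9orf3 (0.19) and ATP6V0D1 (0.20). Nearest to ID2 were LPAR3 (0.34), RPS2P12 (0.48) and MPDZ (0.48), and nearest to ID3 DLG4 (0.24), POLG (0.28) and PPFIA3 (0.28). ID4 was nearest to GRAMD3 (0.22), ZBED6CL (0.23) and SYT14 (0.31). The other ID genes came later in each ranking of 12163: the first of them was ID3 in place 4674 from ID1, ID3 in place 1813 from ID2, ID1 in place 2424 from ID3 and ID1 in place 5278 from ID4. In the 12 sorted libraries, with rankings of 12294, the first was ID4 in place 8885 from ID1, ID3 in place 181 from ID2, ID2 in place 2399 from ID3 and ID1 in place 929 from ID4. GRAMD3 and ZBED6CL were again nearest to ID4, and the nearest genes to ID1, ID2 and ID3 were different ones: PAQR4 (0.15), LY6K (0.26) and TSC22D1 (0.13) in first place.

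The genes lie apart in the genome, also where they share chromosome 20 or chromosome 2. In build GRCh38, ID1 spans chr20:31605283-31606515, BMP2 chr20:6767664-6780280 and BMP7 chr20:57168748-57266629. ID2 is at chr2:8678845-8684453 and BMPR2 at chr2:202376936-202567751, on the same chromosome but far apart. ID3 is at chr1:23557918-23559794, ID4 at chr6:19837386-19840684, BMP4 at chr14:53949736-53958761, BMPR1A at chr10:86756601-86932838 and BMPR1B at chr4:94757968-95158448. Genes annotated antisense to BMP7, ID2 and ID4 overlap them and are not in the table, and whether the libraries kept the strand is not stated. ID2B, a pseudogene of ID2, was at 0 in 14 of 15 libraries.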

How the data were processed

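The deposited table holds 1 FPKM value per gene and library for 15 libraries of mRNA, as made by the authors. The submitters' processing notes name Bowtie2 and GRCh38; the quantifier, its annotation and any normalization between libraries are not given in the sources used here. Genes were matched by symbol. Differences were fitted with limma 3.58.1 (R 4.3.3) on log2(FPKM + 0.1) within each line, over the 12 sorted libraries, or over all 15 for SUM159PT, for genes that averaged 0.1 FPKM or more in them. P-values were adjusted by Benjamini-Hochberg over all genes tested and read at 0.05. The fits were also run on simulated data, and no result given here rests on those runs. Single genes were also compared with an exact permutation test. Counts, promoters and figures were made with Python 3.11.15, numpy 2.4.6, pandas 2.3.3, scipy 1.17.1 and matplotlib 3.10.9. Positions, transcript GC content and length came from GENCODE 29, and promoters from RefSeq (GRCh38.p14).

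Named genes are the 10 genes of the BMP and ID group, genes of the pathway and marker lists that averaged 1 FPKM or more in any group, low genes that a count or marker check turns on, and the 3 genes nearest to each ID gene. The members and lists were chosen with earlier results of these data known. Alternatives were 0.01 or 1 added before the logarithm, no minimum or 1 FPKM, upper quartile scaling, quantile normalization, TPM, a variance trend, a fit over 15 libraries, a replicate block, a log2 limit of 1, the study's limit of 0.0001, each library left out, and, chosen after seeing the data, removal of a GC or a length trend. Raw reads were not analysed here.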

Additional observations from a re-analysis of the deposited data

Results flagged for a closer look

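The limma interaction of line and fraction was called for 6 of 8 genes tested. Of these, 5 were lower, against 33.0% of all genes tested, and 1 was higher, against 28.1%. As SUM149PT minus HCC1937 on the log2 scale, the difference was -2.18 for BMP4, -1.57 for ID1, -2.69 for ID2, -1.67 for ID3 and -3.16 for ID4. It was 0.24 for BMP2, whose call held in 14 of 24 alternatives. ID2 and ID3 had lower levels in CSCs of SUM149PT and higher levels in CSCs of HCC1937, while BMP2, BMP4 and ID4 differed in size and not in direction. The cause of these differences was not tested.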

How the results depend on the processing

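In SUM149PT, BMP2, BMP4, BMPR2, ID1, ID2, ID3 and ID4 kept direction and call in each of 18 alternatives other than stricter limits, and in HCC1937 BMP2, BMP4, ID2 and ID3 did. With a log2 limit of 1, BMPR2 and ID3 in SUM149PT and BMP2, ID2 and ID3 in HCC1937 were not called. The interaction of BMP4, ID1, ID2, ID3 and ID4 held in each of 24, stricter limits aside.

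Counts of called genes moved as follows. In SUM149PT, 2 were higher with no minimum and 1 with a log2 limit of 1, also at the study's 0.0001; leaving out a library gave 2 to 3. In HCC1937, 0 were higher with the log2 limit at either p, and 1 was lower with no minimum, 1 with the log2 limit and 0 at 0.0001; leaving out a library gave 1 to 2. Of the interaction, 0 were higher as TPM, in the fit over 15 libraries and with the log2 limit at either p, 2 with the length trend removed, and 0 to 1 without a library. Between CSCs of the lines the log2 limit left 1 higher and 2 lower at either p, and between non-CSCs 4 lower. Against SUM149PT CSCs, SUM159PT had 0 higher as TPM, 3 with upper quartile scaling or the length trend removed and 1 with the log2 limit at either p. Against HCC1937 CSCs it had 3 higher with upper quartile scaling, 2 with quantile normalization, 0 as TPM, 2 with the GC trend removed, 3 with the length trend removed, 0 with the log2 limit at either p and 1 to 2 without a library, and 3 lower with the GC trend removed.

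Pathway genes lower in SUM149PT numbered 4 with a minimum of 1 FPKM. Those higher in HCC1937 numbered 6 with no minimum, 7 at 1 FPKM and 7 to 9 without a library. Those lower numbered 3 with no minimum, 8 in the fit over 15 libraries and 3 to 5 without a library. With a replicate block, 6 pathway genes were higher in HCC1937. The calls of SMAD5 (0.0862), SMAD6 (0.0623), SMURF2 (0.0662), ATOH8 (0.0503) and HEY1 (0.0619, limma adjusted p) were lost. BMPR1A was called there with the block (log2 0.39, limma adjusted p = 0.0482, range 0.0344 to 0.208). Whether equal replicate numbers are pairs is not stated: deviations of libraries with the same number correlated at 0.029 to 0.136 in SUM149PT and -0.158 to -0.036 in HCC1937, and 4 and 0 of 6 libraries were closest to their own number.

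For the 10 BMP and ID genes, values that changed sign were these. The interaction of BMPR1A, not called, was 0.065 with 1 FPKM added, 0.13 with quantile normalization, 0.13 with the length trend removed, and 0.013 to 0.083 where a library was left out (-0.13 to 0.083 over all of them, with 0.070 without SUM149PT non-CSC replicate 1). SUM159PT against SUM149PT CSCs turned for BMP4 as TPM (-0.13) and for ID3 with quantile normalization (-0.67), as TPM (-1.03), with the GC trend removed (-0.39) and without SUM149PT CSC replicate 3 (-0.0015, up to 0.14 without others). Against HCC1937 CSCs, BMP4 turned with upper quartile scaling (0.56), quantile normalization (1.58), the GC trend removed (0.22), the length trend removed (0.73), and without HCC1937 CSC replicate 1 (0.12) or SUM159PT replicate 3 (0.089; -0.21 to 0.12 over all). BMPR1A (0.62) and BMPR2 (0.042) turned with the GC trend removed, ID1 with quantile normalization (-0.38) and as TPM (-0.81), and ID3 as TPM (-0.063). With the length trend removed, ID3 against SUM149PT CSCs (0.42) and ID1 (0.96) and BMP4 against HCC1937 CSCs were called higher, and with the GC trend removed ID3 against SUM149PT CSCs was called lower. The cause was not tested. GC and length trends were removed as alternatives chosen after seeing the data. Without a library, a group of 2 shares the spread of the others. With no counts, no limit can be set on the values of ID4 in SUM159PT or of BMP7.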
